A study of Homo sapiens with 2 samples.

Results

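The 6 genes described here act in the NODAL and BMP signalling pathways: the ligands NODAL and BMP2, the secreted antagonists CER1, CHRD and FST, and the BMP-responsive regulator ID3. They were taken by symbol from 2005 genes in the authors' deposited table, an RNA-seq comparison of cultures of HES2, an established human embryonic stem cell line. All 6 have a row there. The scramble culture was infected with a scrambled control, and the other culture with a lentivirus for knockdown of TFCP2L1 by short hairpin RNA (shRNA), whose hairpins are not described in the sources used here. Both were grown for 3 passages in basal medium with 10% KSR that held Activin A and FGF2, each at 10 ng/ml, so an activin ligand was supplied to both. Each group was 1 library. No value below therefore has a replicate check, and every difference is between these libraries.

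The table lists only genes that passed the authors' limits, with log2 ratios of at least 1 in size and a largest false discovery rate of 0.000990. The 6 genes were selected on their levels and ratios in this same comparison, all of them from among the listed genes that were higher, so their direction is a description and not a result. Levels are in FPKM, fragments scaled by gene length and library depth, and ratios are knockdown over scramble. Ratios given with an interval are of inferred reads scaled by depth. Reads behind each level were inferred from the deposited values, at a depth of about 23450000 (scramble) and 22720000 (knockdown). Intervals are exact 95% intervals of these reads (Clopper-Pearson for ratios and quotients, Poisson for levels) and cover counting error only. The level of TFCP2L1 itself was 3.19 FPKM with the scramble and 0.33 FPKM with the shRNA, 9.70-fold lower (interval 7.56 to 12.6).

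NODAL and the activins bind activin receptors and lead to phosphorylation of SMAD2 and SMAD3, which act with nuclear partners such as FOXH1. BMPs bind BMP receptors and lead to phosphorylation of SMAD1, SMAD5 and SMAD9, and the ID genes are among the direct targets. Both branches are held in check outside the cell by secreted proteins that bind the ligands. In human embryonic stem cells, activin or NODAL signalling supports pluripotency, and at higher strength it is known to drive primitive streak and endoderm formation.

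All 6 genes were at least 2-fold higher in the knockdown library (log2 ratio with a pseudocount of 0.1 FPKM), and 5 were at least 4-fold higher. Of all 2005 listed genes, 40.8% both reached 1 FPKM in either library and were at least 2-fold higher, and 35.4% were so lower. For 4-fold these shares were 12.0% and 5.34%. The authors' listing itself held 5.86% of the genes they tested as higher and 4.98% as lower. Since the rule used this same contrast, nothing is read from these counts.

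NODAL, the ligand that patterns the early embryo and sustains its own transcription, was the most abundant of the 6 in the scramble library. Its level there was 22.4 FPKM, on 1165 reads, against 64.4 FPKM, on 3242 reads, with the shRNA. The ratio was 2.88 (interval 2.69 to 3.08) and the log2 ratio 1.52, the smallest of the 6. NODAL was thus high in both libraries, and ranked 115 of the 2005 listed genes by scramble level and 50 by knockdown level.

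BMP2, a BMP ligand of the extraembryonic tissues, endoderm and lateral mesoderm, was the scarcest of the 6. Its level was 0.27 FPKM (20 reads) with the scramble and 6.67 FPKM (474 reads) with the shRNA. The ratio was 24.5 (interval 15.7 to 40.5), and the log2 ratio was 4.19 with a pseudocount of 0.1 FPKM and 2.59 with 1 FPKM. The width of the interval comes from the few scramble reads. In absolute terms BMP2 was higher by 6.40 FPKM, the least of the 6, while NODAL was higher by 42.0 FPKM.

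CER1 (cerberus) binds NODAL, BMPs and WNT ligands and is made by the anterior endoderm. Its level was 6.11 FPKM, on 163 reads, with the scramble and 799 FPKM, on 20654 reads, with the shRNA. That is a difference of 793 FPKM, a ratio of 131 (interval 112 to 154) and a log2 ratio of 7.01. By level CER1 stood at rank 433 among listed genes with the scramble and at rank 3 with the shRNA.

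CHRD (chordin) sequesters BMPs and is a product of the node and its derivatives. Its level was 0.54 FPKM (45 reads) with the scramble and 79.4 FPKM (6466 reads) with the shRNA. The ratio was 149 (interval 111 to 204), and the log2 ratio was 6.96, against 5.71 when 1 FPKM was added in place of 0.1. CHRD moved from rank 1493 to rank 40 by level. Exons of CHRD overlap those of THPO on the opposite strand in GENCODE v29, and the strand setting of the counting is not given in the sources used here. THPO, singled out for this overlap, was itself listed, at 0.56 and 3.27 FPKM (25 and 144 reads), against 45 and 6466 reads of CHRD. The part of THPO reads in the level of CHRD was not tested.

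FST (follistatin) binds and neutralises activin, and also some BMPs. It was at 4.50 FPKM (192 reads) and 19.6 FPKM (809 reads), with a ratio of 4.36 (interval 3.72 to 5.13) and a log2 ratio of 2.09. The activin in the medium of both cultures is a protein that FST binds, and its level is not part of these data.

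ID3, an inhibitor of basic helix-loop-helix factors and a widely used readout of BMP signalling, was at 8.25 FPKM (229 reads) and 52.0 FPKM (1400 reads). The ratio was 6.32 (interval 5.49 to 7.30) and the log2 ratio 2.64. Its rank by level went from 323 to 64. ID2, a close relative from the same target list, was at 4.28 and 13.2 FPKM, a ratio of 3.10 (interval 2.55 to 3.80). The level of ID3 over that of ID2 was 1.93 in the scramble library (interval 1.55 to 2.40) and 3.93 with the shRNA (interval 3.51 to 4.40).

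**Figure D1:**
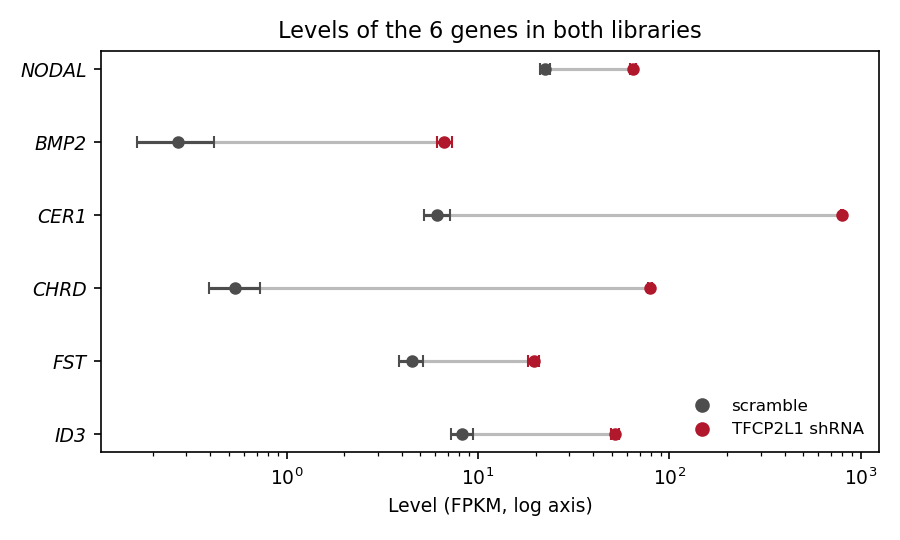
Level of each gene in FPKM (log axis) in the scramble library (grey) and the TFCP2L1 shRNA library (red), 1 library each, with 95% Poisson intervals of the inferred reads as bars. Every red point lies right of its grey point, by 2.88-fold for NODAL and 149-fold for CHRD.

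The 6 ratios fell into separate sizes. The intervals of CHRD and CER1 overlapped, so the order of these 2 could not be told. CER1 (from 112) lay above BMP2 (up to 40.5), BMP2 (from 15.7) above ID3 (up to 7.30), ID3 (from 5.49) above FST (up to 5.13), and FST (from 3.72) above NODAL (up to 3.08). The order of levels differed between the libraries. In the scramble library it ran NODAL, ID3, CER1, FST, CHRD and BMP2. The intervals of CHRD and BMP2 overlapped there, though the interval of their quotient (1.16 to 3.58) lay above 1. Limits nearly met for ID3 with CER1 (7.22 and 7.12 FPKM) and CER1 with FST (5.21 and 5.18 FPKM). In the knockdown library it ran CER1, CHRD, NODAL, ID3, FST and BMP2, with no overlap between neighbours. These intervals leave out the variation between cultures, which 1 library per group cannot give.

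Transcripts of CER1, CHRD and FST together were fewer per length than those of NODAL and BMP2 with the scramble, and more numerous with the shRNA. CER1, CHRD and FST summed to 11.2 FPKM against 22.7 FPKM for NODAL and BMP2 in the scramble library, a quotient of 0.491. In the knockdown library the sums were 898 and 71.1 FPKM, a quotient of 12.6. CER1 made up 54.8% of the antagonist sum with the scramble and 89.0% with the shRNA. Without CER1 the quotients were 0.222 and 1.39, and with FST as the sole antagonist they were 0.198 and 0.275, below 1 in both libraries. Other listed antagonists (such as CHRDL1 and KCP) and ligands (such as TGFB1 and INHBE) are not in these sums. LEFTY1, LEFTY2 and NOG had no row, so the balance of all antagonists and ligands is not given. These quotients are built from the levels on which the genes were selected and are a description.

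Single pairs of antagonist and ligand did not all move the same way. CER1 over NODAL was 0.273 with the scramble (interval 0.230 to 0.321) and 12.4 with the shRNA (interval 12.0 to 12.9). CHRD over BMP2, an antagonist and its ligand, was 2.0 (interval 1.16 to 3.58) and 11.9 (interval 10.8 to 13.1). FST over BMP2 went the other way, from 16.7 (interval 10.5 to 27.9) to 2.93 (interval 2.61 to 3.29). CER1 over CHRD was 11.3 (interval 8.09 to 16.1) and 10.1 (interval 9.78 to 10.3), and these intervals overlapped. NODAL over BMP2 was 83.0 (interval 53.5 to 136) and 9.65 (interval 8.76 to 10.7). These are quotients of transcript levels, and the proteins were not measured.

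**Figure D2:**
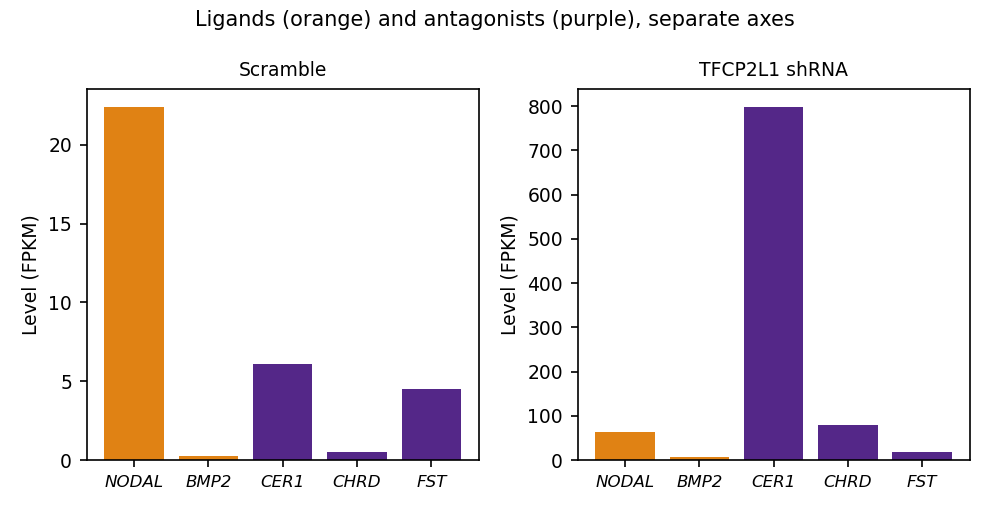
Levels in FPKM (linear axes from 0, a separate scale for each panel) of the ligands NODAL and BMP2 (orange) and the antagonists CER1, CHRD and FST (purple) in the scramble library (left) and the TFCP2L1 shRNA library (right), 1 library each. NODAL is the tallest bar on the left at 22.4 FPKM and CER1 on the right at 799 FPKM.

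Promoter sequence was also examined, as a description, and a link of the words to the ratios was not tested. The 250 bases before the start were taken from RefSeq (GRCh38.p14) for 5 of the 6 genes, and BMP2 was not matched. The words searched on both strands were AATNCACA (FOXH1), CAGACA (a SMAD box), GTCTAGAC (the SMAD palindrome), GGCGCC (a GC-rich SMAD word of BMP targets), AGGTGTGA (a T-box site) and the TFCP2L1 word, which is CCAG and CCNG with 6 free bases between them. The promoters of CER1 and CHRD, the genes with the highest ratios, are shown with that of ID3, the BMP readout, each 5′ to 3′ on the strand of the gene, with matched words in capitals.
CER1 (chr9:14722734-14722983, minus strand): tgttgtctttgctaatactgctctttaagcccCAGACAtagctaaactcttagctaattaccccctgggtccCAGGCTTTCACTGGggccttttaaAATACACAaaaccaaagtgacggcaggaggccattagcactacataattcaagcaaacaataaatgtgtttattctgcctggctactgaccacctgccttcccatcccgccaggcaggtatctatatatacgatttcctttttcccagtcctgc
CHRD (chr3:184379804-184380053, plus strand): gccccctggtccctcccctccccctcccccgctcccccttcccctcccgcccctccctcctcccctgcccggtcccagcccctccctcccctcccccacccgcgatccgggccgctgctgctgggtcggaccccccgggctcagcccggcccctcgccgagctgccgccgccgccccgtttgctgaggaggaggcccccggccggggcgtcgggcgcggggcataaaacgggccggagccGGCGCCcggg
ID3 (chr1:23559502-23559751, minus strand): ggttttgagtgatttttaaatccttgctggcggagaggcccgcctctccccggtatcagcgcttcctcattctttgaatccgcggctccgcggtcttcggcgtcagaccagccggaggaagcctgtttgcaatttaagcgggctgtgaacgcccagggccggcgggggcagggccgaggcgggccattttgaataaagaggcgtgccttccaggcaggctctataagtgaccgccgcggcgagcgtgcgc

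CER1 held 3 of the words: CAGACA from 218 to 213 bases before the start, AATACACA (FOXH1) from 154 to 147, and between them CAGGCTTTCACTGG, a TFCP2L1 word on the opposite strand, from 178 to 165. None of these overlapped another. CHRD held GGCGCC from 10 to 5 bases before the start. The promoters of NODAL, FST and ID3 held none of the words in this window. Of all 35116 RefSeq promoters of the same length, 2.89% held the FOXH1 word, 13.6% CAGACA, 11.6% the TFCP2L1 word and 16.4% GGCGCC. GTCTAGAC (0.182%) and AGGTGTGA (0.786%) were in no promoter of the 5. The promoters also differed in base composition, from 45.2% G and C in CER1 to 81.6% in CHRD, against a median of 58.0% over all promoters. ID3 was at 62.0% and NODAL at 65.2%, and FST lay between CER1 and ID3. A match shows only that these letters are present, and binding was not measured.

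Around the 6 genes, 9 lists of pathway genes by role held 129 genes, and 33 of them had a row, 22 higher and 11 lower. With a level of 1 FPKM reached and at least 2-fold apart, 19 were higher and 7 lower, and the median log2 ratio of the 33 was 1.77. Without the 6 genes, 27 remained on the authors' list, 16 higher (59.3%) and 11 lower, near the 54.1% higher over all listed genes. Their median was 1.45, against 1.01 over all listed genes. A gene without a row is not described here.

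Of 16 ligands of the NODAL, activin and TGF-beta branch, 3 were listed as higher and 4 as lower, with a median log2 ratio of -1.03 over all 7 and 0.25 over those that reached 1 FPKM, so this median has no stable sign. TGFB1, the founding TGF-beta ligand, was at 14.6 and 52.1 FPKM, a ratio of 3.59 (interval 3.33 to 3.87), which is larger than that of NODAL. AMH (anti-Muellerian hormone) was at 1.25 and 5.14 FPKM. The listed inhibin and activin subunit genes were lower: INHBE, an activin E subunit, was at 11.2 and 1.94 FPKM, which was 5.78-fold lower (interval 4.70 to 7.17), and INHA, the inhibin alpha subunit, at 2.53 and 1.19 FPKM. INHBC stayed under 1 FPKM in both libraries, at 0.66 and 0.09 FPKM. GDF15, a stress-responsive ligand, was at 14.2 and 4.47 FPKM. Of 15 BMP ligands, BMP2 was the 1 listed as higher. BMP6 was at 1.05 and 0.12 FPKM, which was 8.90-fold lower (interval 4.62 to 19.2), and BMP8B was at 0.55 and 0.23 FPKM, an uncertain level because 17.8% of its 31-base words are shared with other genes.

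Of 20 secreted antagonists, 4 were listed as higher (CER1, CHRD, FST and KCP) and 2 as lower, with a median log2 ratio of 1.74. Among these 4, CER1, CHRD and FST were selected as higher, and 54.1% of all listed genes were higher. KCP, a chordin-like protein that is also known to enhance BMP signalling, was at 2.62 and 6.99 FPKM, a ratio of 2.68 (interval 2.34 to 3.07). CHRDL1, another chordin-like BMP antagonist, was at 7.42 and 2.74 FPKM, which was 2.70-fold lower (interval 2.33 to 3.13). Chordin-related genes thus differed in both directions, and CHRDL1 was above CHRD with the scramble and below it with the shRNA. LEFTY1, LEFTY2 and NOG had no row.

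Of 8 proteases of ligands and antagonists, 2 were listed as higher and 1 as lower. BMP1 and TLL1 encode tolloid-type proteases, which cleave chordin. BMP1 was at 2.41 and 6.75 FPKM, a ratio of 2.80 (interval 2.37 to 3.31). TLL1 was at 0.02 and 0.31 FPKM, on 3 scramble reads, with a ratio of 11.7 (interval 3.69 to 59.6). PCSK5, a proprotein convertase, was at 3.67 and 1.73 FPKM. None of the 12 receptors on the list had a row. Of 15 co-receptors and membrane modulators, CFC1 (cryptic, a NODAL co-receptor) was at 0.07 and 0.49 FPKM on 2 scramble reads, a ratio of 9.31 (interval 2.23 to 82.7), and is uncertain because 93.4% of its words also occur in CFC1B or another gene. HFE2 (hemojuvelin, a BMP co-receptor) was at 1.08 and 0.20 FPKM. Of 20 SMADs and nuclear partners, SMAD9 was the 1 with a row, at 0.88 and 0.41 FPKM.

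Of 20 BMP targets, 4 were listed as higher and 1 as lower, with a median log2 ratio of 1.91. ID3, selected as higher, is among these 4, and 54.1% of all listed genes were higher. Besides ID3 and ID2, ZNF503 was at 0.45 and 2.25 FPKM, a ratio of 4.99 (interval 3.45 to 7.41). MSX1, a homeobox gene of the BMP response, was at 0.07 and 0.54 FPKM, on 3 scramble reads. SMAD9 was the lower member. ID1, ID4, SMAD6, SMAD7 and BAMBI had no row. Of the listed targets ID3 had the highest level in either library.

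Of 18 NODAL and activin targets, 10 were listed and all 10 were higher, with a median log2 ratio of 6.79. Over all listed genes 54.1% were higher, and the authors' listing held 5.86% of the genes they tested as higher. NODAL, CER1 and FST, selected as higher, are among these 10, and the list overlaps with primitive streak and endoderm markers. LEFTY1, LEFTY2, GDF3, TDGF1, FOXH1, SMAD7, SKIL and PMEPA1 had no row, so the counts do not describe them. SOX17, an endoderm factor, had no scramble reads and was at 26.6 FPKM. EOMES, a T-box factor of the streak, was at 0.25 and 76.0 FPKM, and LHX1, a homeobox factor of the organizer, at 0.20 and 52.8 FPKM.

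**Figure D3:**
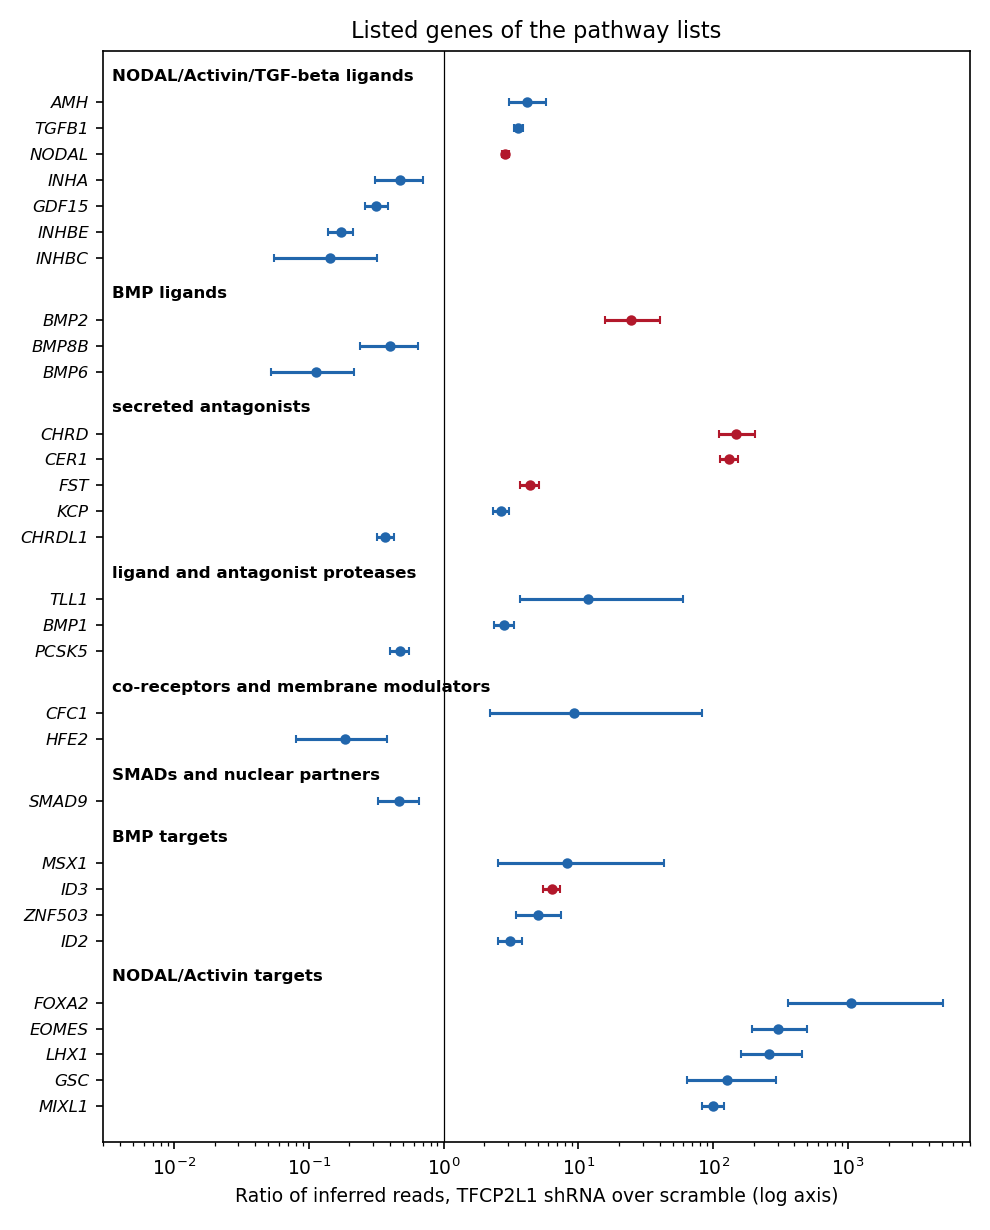
Ratio of inferred reads, TFCP2L1 shRNA over scramble (log axis), with exact 95% intervals as bars, for the listed genes of the 9 pathway lists, each under the first list that holds it. The 6 genes are red and others blue, SOX17 is left out because it had no scramble reads, genes not reported here are left out too, and the line marks equal levels. CHRD and CER1 stand right of the other listed antagonists, and BMP6 and BMP8B stand left of the line while BMP2 stands right of it.

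Markers of several other cell types differed between the libraries too. The authors' listing held 5.86% of the genes they tested as higher and 4.98% as lower, and 54.1% of all listed genes were higher. Of 8 primitive streak markers, 6 were listed and higher, and their summed level was 9.21 FPKM with the scramble and 491 FPKM with the shRNA. Of 8 definitive endoderm markers, 7 were listed and higher (2.42 and 159 FPKM), with SOX17 at the floor of 0.01 FPKM in the scramble library. Of 7 node and notochord markers other than CHRD, 6 were listed and higher (1.50 and 128 FPKM), and FOXA2, FOXA1 and T on this list are also on the streak or the endoderm list. SHH, made by the notochord, was at 0.02 and 6.11 FPKM, and NOTO, a node factor, at 0.04 and 2.85 FPKM. Of 8 neuroectoderm markers 4 were listed, with sums of 132.6 and 323 FPKM. Of these, 3 were higher, among them NES (95.9 and 252 FPKM) and OTX2 (12.3 and 62.2 FPKM), and SOX3 was lower (24.4 and 8.82 FPKM). COL1A1, the 1 listed of 7 feeder or fibroblast markers, was lower, at 110.2 and 24.4 FPKM. Mesoderm markers summed to 1.50 and 2.74 FPKM (3 of 9 listed, 2 higher and 1 lower), and none of 9 amnion and trophectoderm markers was listed. Of 12 pluripotent stem cell markers, SOX2 (180 and 86.1 FPKM), PODXL and UTF1 were listed, all lower, and POU5F1 and NANOG had no row. The part of these cell types in the levels of the 6 genes was not tested. In bulk RNA, more cells of a type and more RNA per cell cannot be told apart.

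The listed genes nearest to each of the 6 were found by distance over the log2 levels of the 2 libraries (pseudocount of 0.1 FPKM). CER1 had no close neighbour: the nearest, MIXL1, was at 2.70 and 267 FPKM, a distance of 1.95 on the log2 scale. CHRD was nearest to EOMES (0.873), then CST1 (0.887; 44.5 FPKM with the shRNA, uncertain because 41.4% of its words are shared) and SP5 (1.05). NODAL was nearest to the desmosome gene DSP (0.124; 20.9 and 61.4 FPKM), then MAGEB17 (0.152) and the cadherin CDH2 (0.186). BMP2 was nearest to the tachykinin receptor gene TACR1 (0.138; 0.28 and 7.32 FPKM), then FLRT3 (0.368) and CD48 (0.409). FST was nearest to LFNG (0.166), NCOA5 (0.235) and CCKBR (0.250), and ID3 to EPB41L3 (0.402), PRKCDBP (0.415) and COL5A2 (0.496). With 1 library per group this likeness rests on 2 values per gene.

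**Figure D4:**
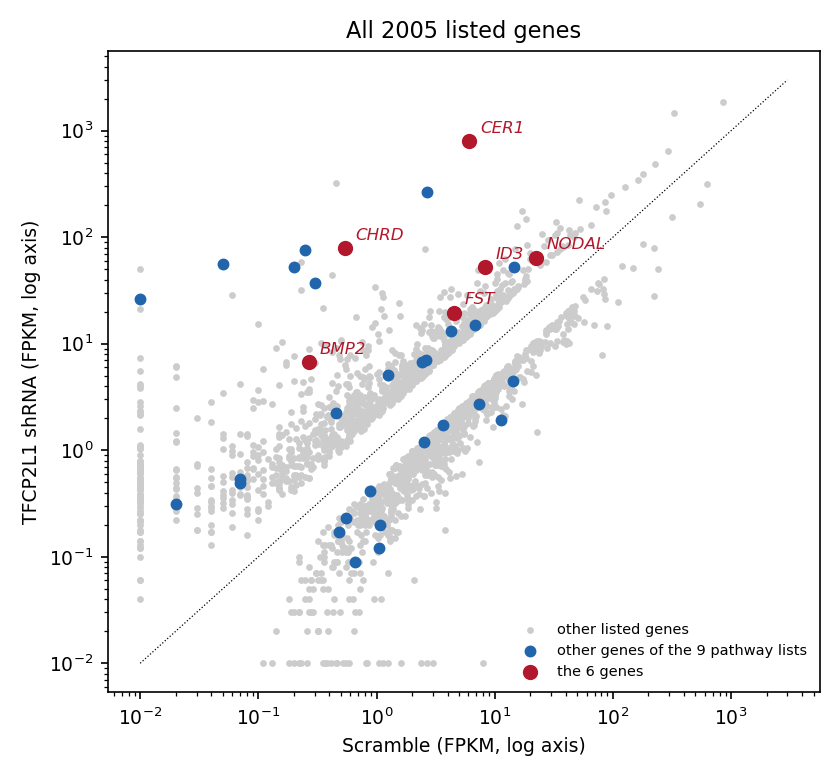
Level in the TFCP2L1 shRNA library against the scramble library (FPKM, both axes log) for the 2005 listed genes (grey), the pathway lists (blue) and the 6 genes (red), with a dotted line of equal levels. The band without points along the line is the authors' limit of 2-fold, and CER1 stands apart at 799 FPKM.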

How the data were processed

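Per the labels' protocols, HES2 RNA was sequenced by BGISEQ-500, with 1 library per group. The submitters' processing notes name hg19 and Bowtie 0.12.2. Not given in the sources used here are the read counter, the quantifier, the test and the strand setting. The authors' deposited table gives a level per library, read here as FPKM (the file header says expression only), with 0.01 as its floor. It also gives the deposited log2 ratio, and a p-value and false discovery rate for each listed gene. Ratios of p-value to rate give whole ranks for 18489 tested genes.

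Log2 ratios were computed from FPKM plus a pseudocount of 0.1, which understates low genes. A gene was counted at 2-fold or more with at least 1 FPKM in at least 1 library. Reads were inferred in Python 3.11.15 with SciPy 1.17.1 from level, length less 68 bases and p-value (a Poisson test of 2 libraries, to within 0.0002 of its natural log). Such reads were found for 1501 (77.9%) of the 1926 genes whose p-value is not printed as 0. BMP2 and ID3 were among them, and reads of the other 4 genes came from the level alone. For CER1 and CHRD the p-value is printed as 0, and for NODAL and FST no whole reads fitted the p-value. The steps were tested on simulated data. No p-value was computed, since each group had 1 library. Percentages of shared sequence are of 31-base words of the longest GENCODE v29 transcript, and were at most 0.439% in the 6 genes. The 6 genes and all lists were chosen with earlier results of these data known. Named genes were the 6, TFCP2L1, listed pathway genes (up to 6 a list), up to 2 per marker list and the 3 nearest genes to each of the 6. Values of some listed pathway genes are not reported here, though the counts hold them. THPO, genes under 1 FPKM and further markers or targets were named after their values were seen. Alternatives were pseudocounts of 1 and 0.01, the authors' deposited log2 ratio, inferred reads, no level filter, a 4-fold limit, sums without CER1 and 1 strand for words.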

Additional observations from a re-analysis of the deposited data

How the results depend on the processing

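All 6 log2 ratios stayed positive under pseudocounts of 1 and 0.01, the authors' deposited ratio and inferred reads, and 2 moved beyond their counting interval, both with a pseudocount of 1 FPKM: BMP2 from 4.19 to 2.59 and CHRD from 6.96 to 5.71. The pathway genes counted as lower went from 7 to 3 with that pseudocount, and with a limit of 4-fold the counts were 12 higher (from 19) and 2 lower. The antagonist over ligand quotient of the scramble library was 0.573 with 1 FPKM added to each level. Without CER1 the quotients were 0.222 (scramble) and 1.39 (knockdown), and with FST alone, chosen after seeing the data, 0.198 and 0.275. With words on the strand of the gene alone, the TFCP2L1 word was in 0 of the 5 promoters matched to the 6 genes, where both strands gave 1. These follow from the settings themselves. No paired analysis was possible because each group had 1 library, and no library could be left out. Depth limits BMP2 and CHRD most, with 20 and 45 scramble reads.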

Other observations

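Genes beside the 6 on the chromosome were listed too. Of the 12 nearest protein-coding genes, 1 on each side of each gene in GENCODE v29, 3 were in the table, and all 3 were higher. The authors' list held 5.86% of all genes tested as higher and 4.98% as lower. FREM1, a basement membrane protein gene beside CER1, was at 0.26 and 3.55 FPKM. FERMT1, a kindlin gene beside BMP2, was at 3.92 and 12.4 FPKM. EPHB3, an ephrin receptor gene beside CHRD, was at 2.60 and 8.91 FPKM. They were picked for position after the table was seen, and no reason for it was tested.

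The gene annotation in the authors' deposited table groups genes in another way. Its terms were picked after the table was seen, and others that were looked at are not reported here. It assigns the term "BMP signaling pathway" to 11 listed genes, 9 of them higher and 2 lower (median log2 ratio 1.76). NODAL, CER1 and CHRD, chosen with their levels known, carry this term, but BMP2, FST and ID3 do not. Without NODAL, CER1 and CHRD, 6 of 8 were higher, against 54.1% of all listed genes. None of these 8 is on the 9 pathway lists. The term "axis specification" is on 5 listed genes, all higher: AXIN2, CER1, LHX1, NODAL and WNT3, of which 3 are not among the 6 genes. "Activin receptor signaling pathway" is on FST alone.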
